A study of Mus musculus with 66 samples.

Results

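The hippocampus of aged mice was compared between 3 and 5 months after an injection of control brain extract. The members are the 13 libraries, of 66 in the series, that the labels place in these groups: 6 libraries at 3 months post injection (mpi) and 7 at 5 mpi. All come from C57BL/6 mice of the 12-month cohort, and polyadenylated RNA of the hippocampus was sequenced. The study injected mice of a 3-month and a 12-month cohort with a control or an Alzheimer's disease (AD) brain extract. Tissue was collected at 1, 3 and 5 mpi. Other groups used here are 12-month mice with control extract at 1 mpi (5 libraries), 12-month mice with AD extract at 3 mpi (6 libraries) and 5 mpi (7 libraries), and 3-month mice with control extract at 3 and 5 mpi (5 libraries each). The labels give no transgene, sex or hour of collection, and do not say whether an age is that at injection or at collection. Every animal received an extract, so no library comes from an uninjected mouse, and aging and time since injection cannot be told apart.

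The depth of the 13 libraries ran from 43253379 to 51927395 reads assigned to genes. A level below is the deposited value, a gene's reads per 1000000 of the library (RPM) after division by a factor of that library's own, and a change is the difference of mean log2(value + 1), 5 minus 3 mpi, with its standard error. Markers of the labelled tissue were present in every library: Prox1, a dentate granule cell factor, was at 106 to 128 at 3 mpi and 77.5 to 135 at 5 mpi, and Neurod6, a pyramidal cell factor, at 219 to 270 and 254 to 316. Xist, the RNA of the inactive X chromosome, was at 794 to 855 in 3 libraries of the 3 mpi group (replicates 3, 5 and 6) and at 454 to 796 in 4 of the 5 mpi group (replicates 2 to 5). The other libraries held reads of the Y-linked Ddx3y at 76.0 to 98.9, so both groups mix the sexes (3 of 6 and 3 of 7 libraries Y-linked). Ttr, the transthyretin of choroid plexus, was far above the rest in replicates 4 and 5 at 3 mpi (1932 and 5030) and replicates 1, 3 and 4 at 5 mpi (1760 to 4306), against 75.5 to 365 in the other 8.

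The mammalian clock is a feedback loop in which BMAL1 (Arntl) and CLOCK bind E-boxes in the promoters of their own repressors (the Per and Cry genes, Bhlhe41 and Ciart), of the nuclear receptors Nr1d1 and Nr1d2, and of the output factor Dbp. These transcripts cycle over the day in most tissues, the hippocampus included. In the endoplasmic reticulum (ER), newly made secreted and membrane proteins are folded by chaperones, glycosylated and joined by disulfide bonds, and a shortage of folding capacity switches on the unfolded protein response, which acts through ER stress response elements in chaperone promoters.

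Between 3 and 5 mpi, 43 of 20084 genes tested (0.214%) differed after control extract, by limma with Benjamini-Hochberg adjustment at an adjusted p under 0.05. Of these, 18 were lower at 5 mpi (0.0896% of genes tested) and 25 were higher (0.124%). Clock genes were among the lower ones, with Dbp down 42.2% and Nr1d1 down 28.2%. ER folding genes were among the higher ones, with Pdia6 up 31.5% and Calr up 22.4%. The changes were small: no called gene moved by more than 0.79 on the log2 scale, and the median over all genes tested was -0.0017. Groups of libraries did not overlap in 116 of all genes tested (0.578%), and in 30 of the 43 called genes.

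The count rests in part on single libraries. Leaving out replicate 4 of the 3 mpi group gave 20 called genes, leaving out replicate 1 gave 24, and leaving out replicate 5 of the 5 mpi group gave 28, whereas without replicate 5 of the 3 mpi group there were 68. In each of the 13 fits with 1 library left out, 16 of the 43 genes passed: Dbp, Nr1d1, Bhlhe41, Zfp46 and Hecw2 among the lower, and Pdia6, Calr, Glt8d2, Mdga1, Fgf10, Zdhhc14, Creg2, Rexo4, Ints3, Tmem50b and Rnf181 among the higher. All 43 kept their direction in every fit run.

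In the circadian clock list, 5 of 20 genes tested fell (Dbp, Nr1d1, Ciart, Bhlhe41 and Nr1d2) and none rose. The median of the list was -0.09, with 13 members lower and 7 higher at 5 mpi. With the level of thalamic genes as a covariate, Dbp and Nr1d1 passed and the other 3 did not. The thalamic list shares Rora with the clock list. The promoters of Ciart and Bhlhe41 are shown because they hold the E-box, written CACGTG and the same on both strands. Binding of BMAL1 and CLOCK at these sites was not measured. The windows, on GRCm38.p6, run from 250 bases before to 50 bases after the start given by RefSeq, 5′ to 3′ along the gene, with each E-box in capitals. That start can differ from the gene coordinates printed below, which are from GENCODE.
Ciart, chr3:95882179-95882478, minus strand: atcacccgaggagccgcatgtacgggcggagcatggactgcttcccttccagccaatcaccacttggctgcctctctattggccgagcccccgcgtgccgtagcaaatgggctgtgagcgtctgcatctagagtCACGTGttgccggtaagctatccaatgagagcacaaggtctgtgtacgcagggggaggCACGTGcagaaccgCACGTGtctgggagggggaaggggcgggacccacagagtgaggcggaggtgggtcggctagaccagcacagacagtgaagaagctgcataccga
Bhlhe41, chr6:145865371-145865670, minus strand: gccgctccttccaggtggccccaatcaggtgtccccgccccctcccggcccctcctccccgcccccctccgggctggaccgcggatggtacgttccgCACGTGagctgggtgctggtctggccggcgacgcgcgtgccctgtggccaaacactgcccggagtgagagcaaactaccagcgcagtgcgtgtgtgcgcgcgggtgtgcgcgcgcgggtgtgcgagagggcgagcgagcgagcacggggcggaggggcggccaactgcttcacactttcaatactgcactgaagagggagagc
Ciart has 3 E-boxes in this window, the nearest 44 bases before the start, and Bhlhe41 has 1. The windows of Dbp, Nr1d1, Nr1d2 and Usp2 hold none, and of the 17 clock list members with a promoter 5 hold an E-box: Ciart, Bhlhe41 and the uncalled Per1, Cry1 and Tef. Of the 43 called genes, 36 had a promoter among those searched, which left out 1 chromosome. An E-box was found in 5 of the 36 (Ciart, Bhlhe41, Wnt9a, Mfsd4a and Calr), against 8.09% of 27025 genes with that chromosome included. The D-box TTATGTAA, the element that DBP itself binds, was found on either strand in none of the 36 and in 1.11% of all genes.

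Dbp (GRCm38, chr7:45705088-45710203, plus strand) encodes a transcription factor whose transcript is among the most strongly cycling in mammals, and had the smallest p-value of all genes tested. Its lowest, median and highest values were 42.7, 46.1 and 47.9 at 3 mpi and 24.5, 25.6 and 29.6 at 5 mpi. Every 5 mpi library lay below every 3 mpi library, by a wide gap next to the spread within either group (SD 1.77, n = 6, and 1.94, n = 7). The change was -0.77 ± 0.09 (limma, adjusted p = 1.35e-06). At 1 mpi the 5 control libraries ran from 27.2 to 45.0, spanning most of the interval between both later groups.

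Nr1d1 (REV-ERBα; chr11:98767932-98775333, minus strand), the receptor that represses Arntl, fell by 0.48 ± 0.07 (limma, adjusted p = 7.24e-04). Its values were 66.8, 70.6 and 72.0 (lowest, median, highest) at 3 mpi and 41.2, 52.0 and 54.8 at 5 mpi, without overlap. Nr1d2, its close relative, fell by 0.26 ± 0.06 (limma, adjusted p = 0.0273), from 128, 140 and 162 to 108, 120 and 126. Ciart, a repressor of CLOCK and BMAL1, was at 5.59, 7.55 and 8.51 at 3 mpi and at 4.30, 5.13 and 5.46 at 5 mpi, a change of -0.47 ± 0.10 (limma, adjusted p = 0.022). Neither pair of groups overlapped. Nr1d2 passed in 6 and Ciart in 7 of the 13 fits with 1 library left out. Bhlhe41 (DEC2), another E-box repressor, fell by 0.29 ± 0.06 (limma, adjusted p = 0.00949), from 40.6, 43.0 and 47.6 to 32.5, 34.5 and 41.3. Replicate 2 at 5 mpi, at 41.3, lay within the 3 mpi range.

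The positive limb and the period genes did not pass the test. Arntl was at a mean of 34.4 at 3 mpi and 39.6 at 5 mpi (change 0.19 ± 0.09, adjusted p = 0.44), and Nfil3, a repressor that competes with DBP for the D-box, at 8.56 and 11.4 (0.39 ± 0.13, adjusted p = 0.264). Both were higher on average at 5 mpi. Per1 differed by -0.15 ± 0.10 (adjusted p = 0.677), and Per2 by 0.0041 ± 0.11. Usp2, a ubiquitin protease known as a clock output gene and not on the list, fell by 0.29 ± 0.06 (limma, adjusted p = 0.014), from 41.1, 46.0 and 56.1 to 35.2, 37.7 and 41.6, and passed in 11 of 13 fits.

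**Figure D1:**
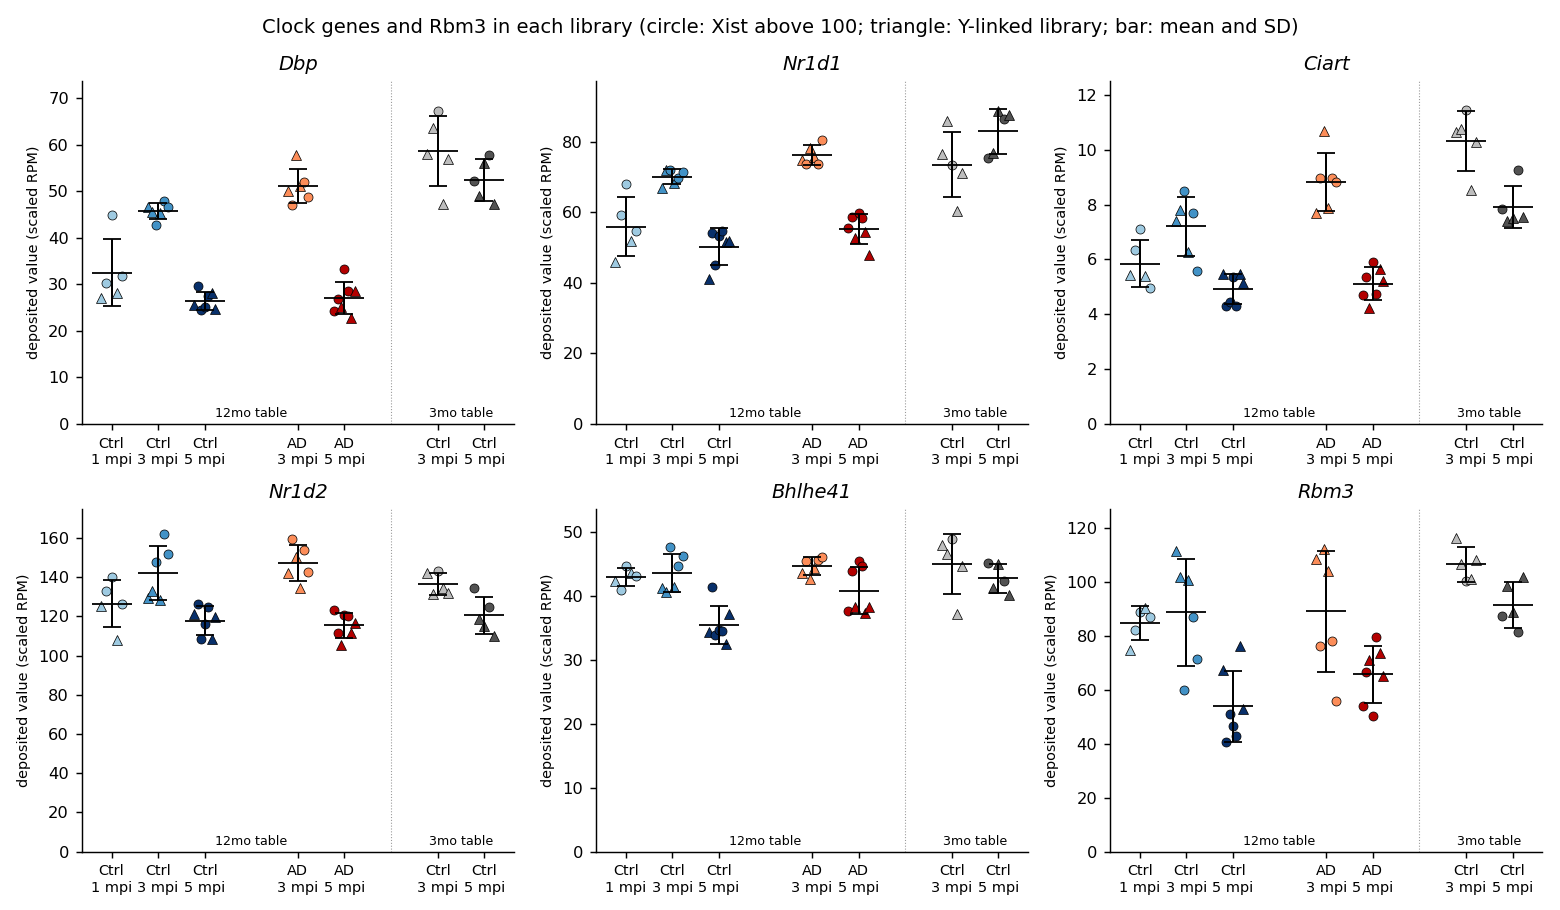
Deposited values (scaled RPM, y axes from 0) of Dbp, Nr1d1, Ciart, Nr1d2, Bhlhe41 and Rbm3 in each library of 7 groups, with the 12-month groups to the left of the dotted line and the 3-month groups to its right; each point is a library (circles, Xist above 100; triangles, Y-linked) and bars are the mean and SD. The Dbp values at 5 mpi, 24.5 to 29.6 after control and 22.8 to 33.2 after AD extract, lie below all 3 mpi values of the 12-month cohort.

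In the heat shock and unfolded protein response list, 2 of 21 genes tested rose (Pdia6 and Calr), none fell, and 19 had a higher mean at 5 mpi. The median change was 0.23, against -0.0017 over all genes. A broader list of ER chaperone, glycosylation and translocation genes, drawn up after the values had been seen and so no independent evidence, had 43 members tested: 5 rose (Pdia6, Calr, Hyou1, Mlec and Stt3b), none fell, 36 were higher at 5 mpi and the median was 0.10. With the thalamic covariate 3 of them passed (Pdia6, Calr and Mlec). The promoters of Pdia6, Calr and the master ER chaperone Hspa5 are shown because each holds the ER stress response element: CCAAT, 9 bases of any kind and CCACG, on either strand. Its first and last 5 bases are in capitals, as is 1 E-box near the left end of the Calr window, and build and window are as above.
Pdia6, chr12:17266339-17266638, plus strand: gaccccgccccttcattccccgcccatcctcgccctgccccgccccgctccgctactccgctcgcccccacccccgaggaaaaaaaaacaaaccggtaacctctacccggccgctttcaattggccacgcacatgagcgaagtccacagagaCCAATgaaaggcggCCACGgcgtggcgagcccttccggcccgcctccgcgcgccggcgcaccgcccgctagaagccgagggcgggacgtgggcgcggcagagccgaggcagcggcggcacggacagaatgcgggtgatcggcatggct
Calr, chr8:84846882-84847181, minus strand: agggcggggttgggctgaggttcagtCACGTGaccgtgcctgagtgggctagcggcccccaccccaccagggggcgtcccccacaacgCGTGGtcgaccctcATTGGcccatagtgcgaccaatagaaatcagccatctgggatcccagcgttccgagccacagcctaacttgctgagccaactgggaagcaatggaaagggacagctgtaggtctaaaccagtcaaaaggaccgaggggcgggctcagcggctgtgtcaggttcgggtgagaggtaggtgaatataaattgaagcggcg
Hspa5, chr2:34771840-34772139, plus strand: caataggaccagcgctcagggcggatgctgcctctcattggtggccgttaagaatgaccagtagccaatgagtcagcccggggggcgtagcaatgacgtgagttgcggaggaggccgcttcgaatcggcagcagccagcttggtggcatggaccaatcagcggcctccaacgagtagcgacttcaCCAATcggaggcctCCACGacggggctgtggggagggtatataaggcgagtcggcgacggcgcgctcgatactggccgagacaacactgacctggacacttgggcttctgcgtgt
The element began 98 bases before the start in Pdia6, 162 in Calr (on the opposite strand) and 65 in Hspa5. It was found in 2 of the 36 called genes with a promoter searched (Pdia6 and Calr) and in 0.137% of all genes (37 of 27025). In the broader ER list 8 of the 35 members with a promoter searched held it: Pdia6, Calr, Hspa5, Hsp90b1, Creld2, Dnajc3, Canx and Syvn1.

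Pdia6 (chr12:17266545-17284770, plus strand), a protein disulfide isomerase, rose by 0.39 ± 0.07 (limma, adjusted p = 0.00298). Its lowest, median and highest values were 94.5, 104 and 117 at 3 mpi and 125, 140 and 148 at 5 mpi. Calr (chr8:84841850-84846934, minus strand), the calcium-binding chaperone calreticulin, rose by 0.29 ± 0.05 (limma, adjusted p = 0.00749), from 324, 365 and 393 to 421, 433 and 474. In both genes each 5 mpi library was above each 3 mpi library. Hyou1, the ER member of the large HSP70 family, rose by 0.24 ± 0.05 (limma, adjusted p = 0.0428), from 94.3, 108 and 110 to 116, 123 and 134. Hyou1 did not overlap between groups but passed in only 4 of the 13 fits with 1 library left out. Mlec (malectin), which binds glucose-bearing glycans on new glycoproteins, rose by 0.23 ± 0.05 (limma, adjusted p = 0.014), and Stt3b, a catalytic subunit of oligosaccharyltransferase, by 0.15 ± 0.03 (limma, adjusted p = 0.0216). They passed in 11 and 8 of the 13 fits. Both overlapped between groups, Mlec through replicate 6 at 5 mpi (162, against up to 167 at 3 mpi).

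Other ER and chaperone genes with a higher mean at 5 mpi did not pass. Hspa5 (BiP) was at 256, 315 and 427 at 3 mpi and at 363, 432 and 488 at 5 mpi, a difference of 0.42 ± 0.11 (adjusted p = 0.0954). Manf, a secreted ER protein, was at 28.2 ± 4.76 and 37.1 ± 3.91 (SD, n = 6 and 7; adjusted p = 0.0775), and Hsp90b1 (GRP94) at 359 ± 29.0 and 417 ± 28.0 (adjusted p = 0.0775). The cytosolic chaperone Hspa8 differed by 0.24 ± 0.06 (adjusted p = 0.0826). Among stress-induced transcripts, the transcription factor Xbp1 differed by 0.36 ± 0.10 (adjusted p = 0.112), and the ER proteins Creld2 by 0.39, Sdf2l1 by 0.41 and Pdia4 by 0.32 (adjusted p = 0.114, 0.287 and 0.270). The values for Ddit3 (0.07), Atf4 (0.06), Trib3 (-0.09) and Dnajb9 (-0.04) were nearer to 0. At an unadjusted p under 0.05 there were 11 of the 21 members of the heat shock and unfolded protein response list, all higher at 5 mpi. Over all genes tested there were 1968 of 20084, of which 1093 were higher.

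**Figure D2:**
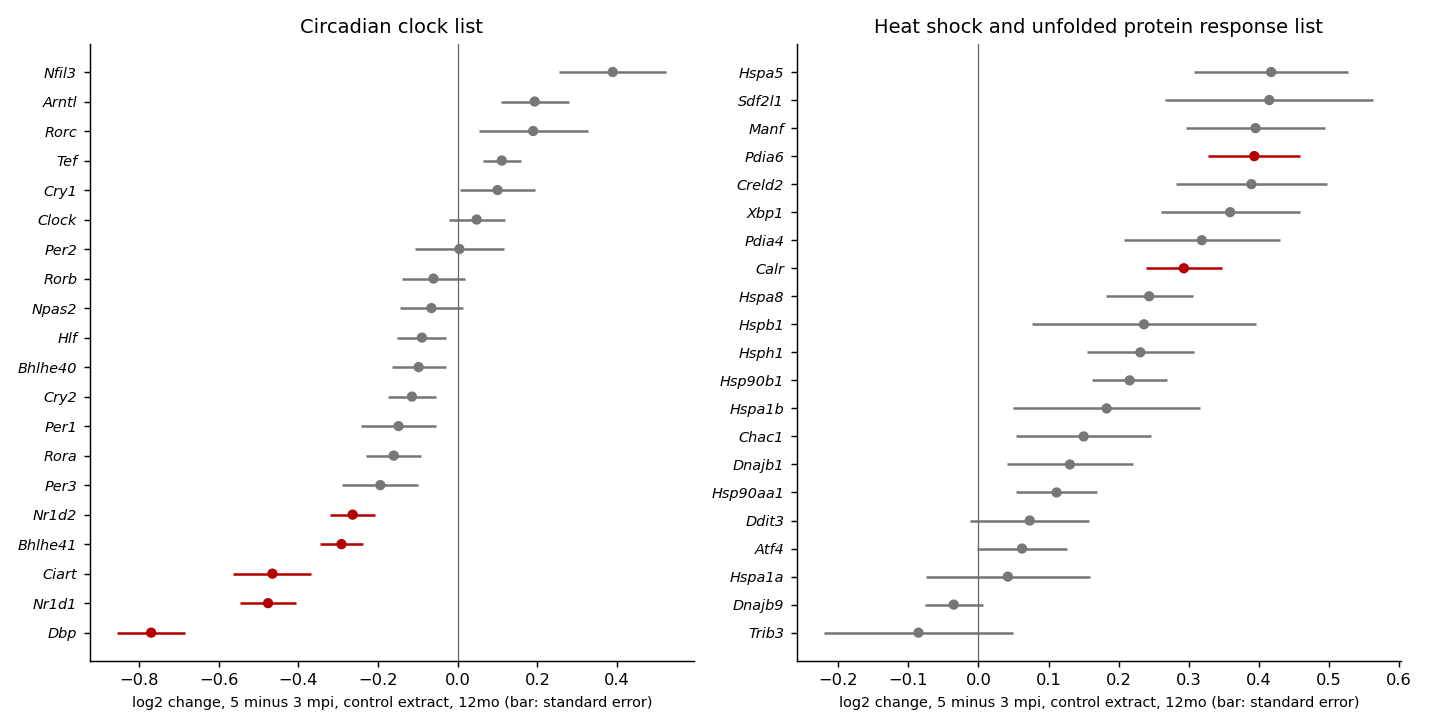
Change between 3 and 5 mpi after control extract at 12 months (log2, x axes) for each tested member of the circadian clock list (left) and the heat shock and unfolded protein response list (right), with bars of 1 standard error; members with an adjusted p under 0.05 are red and the rest grey. The 5 red clock genes lie at the negative end, from -0.77 to -0.26, and 19 of the 21 members on the right lie above 0.

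The ER genes were also split by the sex of the libraries, a split chosen after the data had been seen. In the 3 Y-linked libraries at 3 mpi Hspa5 averaged 263 and in the 3 Xist libraries 384, while at 5 mpi the averages were 428 and 425. Its step was therefore 0.69 in Y-linked and 0.15 in Xist libraries, but the difference of the steps did not pass (0.54 ± 0.17, limma, adjusted p = 0.637). With the 12-month groups split by sex in 1 fit, 92 genes passed in Y-linked libraries (0.458%; 62 higher and 30 lower, 28 of them among the 43) and 6 in Xist libraries (0.0299%). Of the heat shock and unfolded protein response list 6 members rose in Y-linked libraries, Hspa5 (limma, adjusted p = 0.00672), Xbp1, Manf, Pdia6, Calr and Hspa8, and by the same test 0 passed in Xist libraries, where 6 were at an unadjusted p under 0.05. The mean of both steps passed for 136 genes (0.677%), all 43 among them, with 9 of the list higher. In the heat shock and unfolded protein response list 18 of 21 members were higher in Xist than in Y-linked libraries at 3 mpi (median 0.21), as were 20 of 21 after AD extract at the same time (median 0.28), while at 5 mpi the counts were 16 and 9 (medians 0.06 and -0.04). Over all genes tested the median of this difference lay between -0.0046 and 0.0048 in these 4 groups. The 3 Y-linked libraries at 3 mpi are replicates 1, 2 and 4, and a batch that ran with sex cannot be told apart from it.

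**Figure D3:**
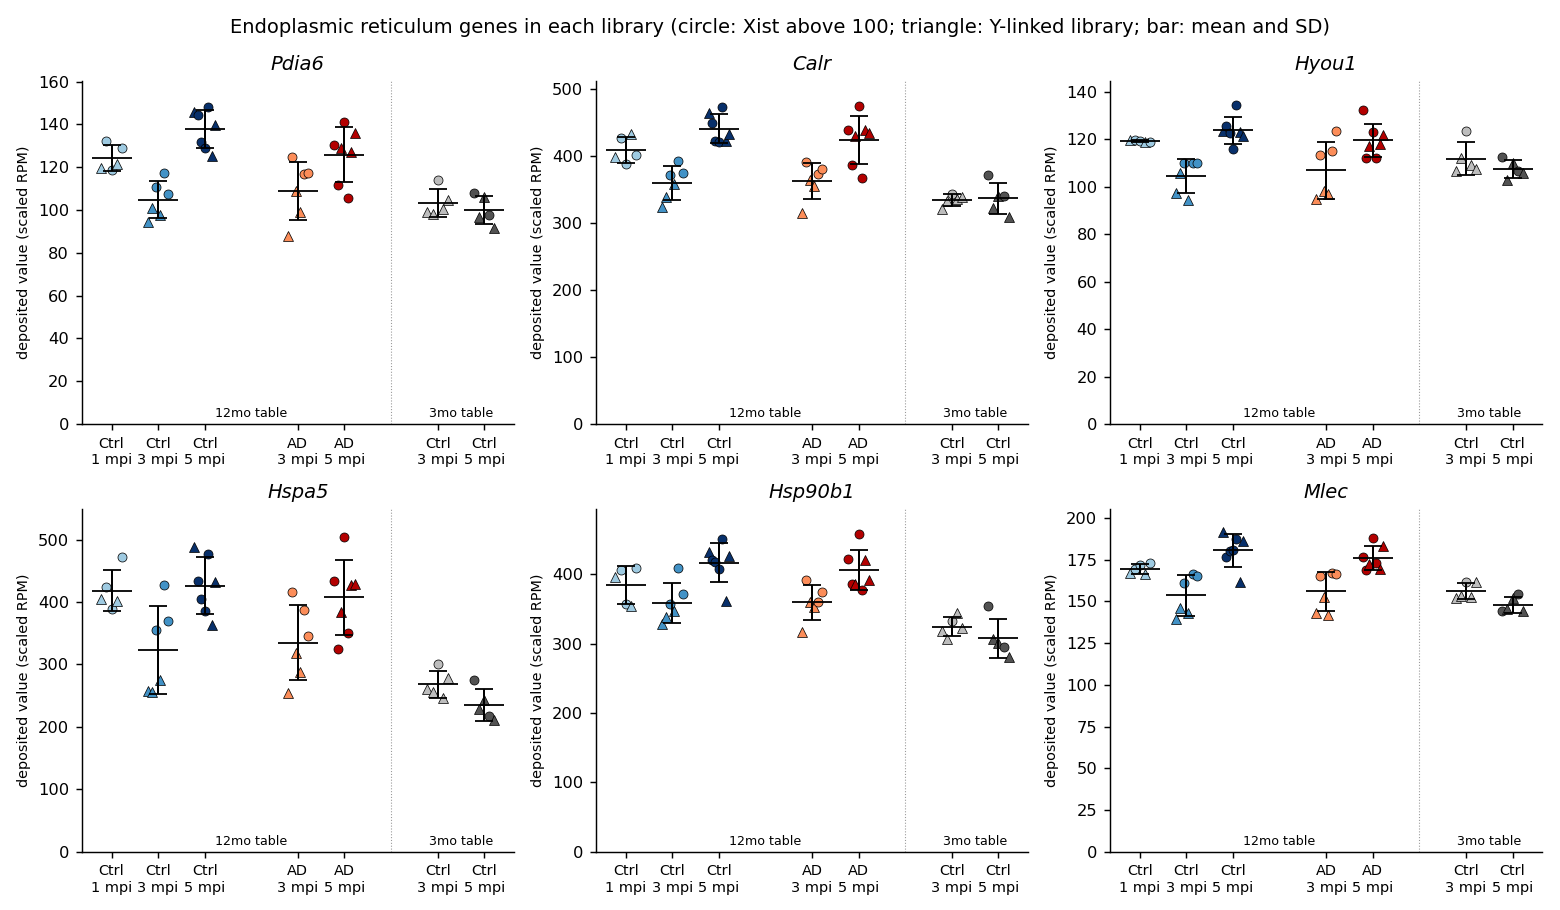
Deposited values (scaled RPM, y axes from 0) of Pdia6, Calr, Hyou1, Hspa5, Hsp90b1 and Mlec in each library, in the same 7 groups, with circles for libraries with Xist above 100, triangles for Y-linked libraries, and bars for mean and SD. In the 12-month control groups Pdia6, Calr and Hyou1 do not overlap between 3 and 5 mpi, and the 3 triangles of Hspa5 at 3 mpi (256 to 276) lie below the circles (355 to 427).

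For all 43 called genes the step had the same direction in Y-linked and in Xist libraries, which calling them on these same libraries favors. Dbp changed by -0.79 and -0.76, Nr1d1 by -0.52 and -0.45, Pdia6 by 0.48 and 0.30, and Calr by 0.37 and 0.22. Other clock genes were less alike, with Nr1d2 at -0.16 and -0.37. In the clock list 10 of 20 members were higher at 5 mpi in Y-linked libraries (median -0.03) and 4 in Xist libraries (median -0.18). Per2 differed by 0.31 and -0.29, and the difference of its steps did not pass (limma, adjusted p = 0.618). Across all genes the step differed by sex in 3 of 20084 (0.0149%), none of them among the 43: the ribosomal protein gene Rpl12 and the sequences Eif4a-ps4 and Gm15920. Rpl12 was at 121 to 140 in the Y-linked and at 67.3 to 71.4 in the Xist libraries at 3 mpi, against 89.7 to 108 in all 7 libraries at 5 mpi. Copies of such genes can share reads, so their counts are uncertain.

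Of the lower genes outside the clock, Pla2g4e and Rbm3 had the largest changes. Pla2g4e, a phospholipase of the cPLA2 family, fell by 0.79 ± 0.17 (limma, adjusted p = 0.0271), from 2.90, 5.10 and 7.15 to 1.19, 2.65 and 3.77 (lowest, median, highest), and 2 of the 7 libraries at 5 mpi lay within the 3 mpi range. Rbm3, an X-linked cold-inducible RNA-binding protein, fell by 0.71 ± 0.16 (limma, adjusted p = 0.0326), from 60.0, 93.9 and 112 to 40.8, 51.0 and 76.3. Its groups overlapped, and at both times its mean was higher in Y-linked than in Xist libraries (105 and 72.9 at 3 mpi, 65.5 and 45.3 at 5 mpi). Pla2g4e passed in 7 and Rbm3 in 5 of the 13 fits with 1 library left out. Cirbp, the other cold-inducible protein of this kind, was at 33.9, 46.4 and 61.5 and then 25.9, 31.6 and 37.1, a difference of -0.56 ± 0.13 that missed the threshold (adjusted p = 0.0528).

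Wnt9a, a secreted Wnt ligand, fell by 0.64 ± 0.12 (limma, adjusted p = 0.0123) without overlap, from 6.23, 7.69 and 10.6 to 3.40, 4.88 and 5.49. Without replicate 1 at 3 mpi, its highest library, the adjusted p was 0.0616. At 1 mpi it ran from 3.84 to 5.63, overlapping the 5 mpi group and below every 3 mpi library. Zfp46, a zinc finger protein, fell by 0.49 ± 0.09 (limma, adjusted p = 0.00505), from 33.3, 39.9 and 48.6 to 25.0, 27.4 and 34.9, with replicate 6 at 5 mpi the only library inside the 3 mpi range. Hecw2, a HECT ubiquitin ligase, fell by 0.38 ± 0.07 (limma, adjusted p = 0.00855), from 36.7, 41.9 and 51.4 to 30.7, 33.7 and 34.9.

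The remaining lower genes were neuronal membrane, palmitoylation, transport and nuclear genes. Kcnj4, the inward rectifier Kir2.3, fell by 0.34 ± 0.08, Lingo2, a leucine-rich repeat membrane protein, by 0.35 ± 0.08, Zdhhc8, a palmitoyltransferase, by 0.37 ± 0.08, and Slc39a6, a zinc transporter, by 0.30 ± 0.06. The chromatin protein gene Hmgb3 fell by 0.36 ± 0.08, Mfsd4a, a solute carrier of the major facilitator kind, by 0.26 ± 0.06, and Sun1, a protein of the inner nuclear membrane, by 0.21 ± 0.04. Their limma adjusted p-values ran from 0.0123 (Sun1) to 0.0454 (Lingo2 and Mfsd4a). Of these 7, Kcnj4, Slc39a6 and Hmgb3 did not overlap between groups, and none passed in all 13 fits with 1 library left out.

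Among the higher genes outside the ER, Glt8d2, Mdga1 and Fgf10 had the largest changes of named genes. Glt8d2, a glycosyltransferase-like protein, rose by 0.41 ± 0.07 (limma, adjusted p = 0.00374), from 14.2, 17.0 and 18.3 to 18.4, 23.5 and 24.4. Mdga1, a membrane-anchored protein that binds neuroligins, rose by 0.38 ± 0.06 (limma, adjusted p = 0.00117), from 48.4, 53.7 and 58.6 to 60.1, 71.3 and 74.6. Fgf10, a fibroblast growth factor, rose by 0.37 ± 0.07 (limma, adjusted p = 0.00461), from 15.3, 18.6 and 20.7 to 21.9, 24.4 and 26.7. None of these 3 overlapped between groups. Gm26644, a noncoding gene model outside the naming rule, rose by 0.47 ± 0.10 (limma, adjusted p = 0.0273).

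Ccnd1, the G1 cyclin D1, rose by 0.34 ± 0.07 (limma, adjusted p = 0.022), from 48.7, 58.8 and 62.8 to 64.2, 72.4 and 76.5, and passed in 7 of 13 fits with 1 library left out. Il34, the neuron-derived ligand of the CSF1 receptor on microglia, rose by 0.27 ± 0.06 (limma, adjusted p = 0.0252), from 32.0, 34.9 and 35.9 to 40.1, 41.9 and 44.5, and passed in 9 of 13. Neither overlapped between groups. Of 6 subunits of the AMP-activated protein kinase the regulatory Prkab2 and Prkag2 rose, by 0.31 ± 0.06 and 0.18 ± 0.04 (limma, adjusted p = 0.0164 and 0.0216). The regulatory Prkab1 and Prkag1 (-0.13 and 0.04) and the catalytic Prkaa1 and Prkaa2 (-0.04 and -0.07) did not pass. This list of subunits was chosen after the values had been seen. Zdhhc14, like Zdhhc8 a palmitoyltransferase, rose by 0.27 ± 0.05 (limma, adjusted p = 0.0125), from 29.0 to 31.6 at 3 mpi to 35.1 to 38.4 at 5 mpi, without overlap.

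The other higher genes by the naming rule were Cstf3, a subunit of the cleavage stimulation factor of mRNA 3′ ends (0.27), the membrane transporter Mfsd13a (0.26), the RNA-binding Raver2 (0.25), Creg2 (0.25) and the exonuclease-like Rexo4 (0.24). Outside the rule were Commd7 (0.23), the Integrator subunit Ints3 (0.23), Specc1 (0.23), Tmem50b (0.22), Tbc1d22a (0.22) and the ubiquitin ligase Rnf181 (0.21). All 11 passed at adjusted p-values from 0.00421 to 0.0454 by limma, and 10 of the 11 did not overlap between groups, the exception being Commd7.

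Genes tied to tau pathology and glial reaction did not pass. Mapt, which encodes tau, was at 457 ± 27.1 (SD, n = 6) at 3 mpi and 488 ± 26.7 (n = 7) at 5 mpi (limma, adjusted p = 0.464), and App at 1792 ± 80.8 and 1866 ± 69.0. The astrocyte filament Gfap was at 713 ± 96.7 and 678 ± 99.6, Apoe at 1620 ± 194 and 1524 ± 114, Trem2 at 15.2 ± 2.04 and 15.1 ± 1.60, and C3 at 12.0 ± 6.77 and 9.24 ± 3.55. Cst7, a marker of disease-associated microglia, was below 2.3 in every library. No gene passed among 26 of disease-associated microglia, 15 of homeostatic microglia, 15 of complement, 29 of the interferon response, 25 of reactive astrocytes, 24 of the excitatory synapse or 20 of myelin. Over all genes tested 0.214% passed, and at that share few or no calls would fall in lists of this size. In the reactive astrocyte list 22 of 25 genes were lower at 5 mpi (median -0.10), and in the disease-associated microglia list 20 of 26 (median -0.06). In the excitatory synapse list 21 of 24 were higher (median 0.04).

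In 2 further lists nearly every member lay on 1 side with none past the threshold. All 20 genes of the thalamus and habenula, tissue that borders the hippocampus, were lower at 5 mpi (median -0.15, range -0.51 to -0.01). The mean log2 level of the list was 3.05 to 3.30 at 3 mpi and 2.88 to 3.27 at 5 mpi (exact permutation test, two-sided, p = 0.0175, and 0.105 adjusted over 6 measures). Tcf7l2, a defining thalamic factor, was at 5.11 to 8.97 and at 3.99 to 6.60, and Gbx2 was at or under 0.298 throughout. In the same step after AD extract, 9 of the 20 genes were higher at 5 mpi (median -0.0055). With the list's level as a covariate 22 genes passed, all among the 43, with Dbp, Nr1d1, Pdia6, Calr and Mlec of the clock and ER lists. The other clock and ER genes no longer passed: Ciart (-0.44, limma, adjusted p = 0.0823), Bhlhe41 (-0.26, 0.0519), Nr1d2 (-0.23, 0.124), Hyou1 (0.26, 0.0544) and Stt3b (0.15, 0.0653). Of 17 glucocorticoid-response genes 15 were lower at 5 mpi (median -0.15), the smallest p-value being that of Klf9 (-0.17 ± 0.06, adjusted p = 0.311). In bulk tissue, fewer cells of a type and less RNA per cell cannot be told apart.

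Choroid plexus genes differed between libraries far more than between groups. The mean log2 level of 18 genes ran from 2.63 to 6.22 at 3 mpi and from 2.21 to 5.85 at 5 mpi (exact permutation test, two-sided, p = 0.9). The levels of ependymal (p = 0.868), meningeal fibroblast (p = 0.248) and blood genes (p = 0.479, all exact permutation tests, two-sided) did not pass either, although 15 of 16 fibroblast genes were lower at 5 mpi (median -0.21). With the choroid plexus level as a covariate 122 genes passed in place of 43, all 43 among them.

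The same step after AD extract was measured in 13 other libraries of the cohort. There 39 genes passed (0.194%), and 6 were shared: Dbp, Nr1d1, Nr1d2, Ciart, Hecw2 and Glt8d2, which are 14.0% of the 43 and 15.4% of the 39. After AD extract Dbp ran from 47.1 to 57.7 at 3 mpi and from 22.8 to 33.2 at 5 mpi (-0.90 ± 0.09, limma, adjusted p = 2.2e-08). Nr1d1 ran from 73.7 to 80.6 and from 47.9 to 59.8 (-0.46 ± 0.07, limma, adjusted p = 0.0011), so neither gene's groups overlapped. Pdia6 did not pass after AD extract (0.21 ± 0.07, adjusted p = 0.23), nor did Calr (0.22, adjusted p = 0.084). Of the 43 genes, 42 had the same direction after AD extract, and the share over all genes tested was not counted. For 40 of them the change was nearer to 0 after AD extract, which choosing genes by the control step favors.

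A difference between the steps after control and AD extract passed for 1 of 20084 genes (0.00498%), Gm13456, and for none of the 43. At an unadjusted p under 0.05 there were 868 of the 20084 genes, a smaller share than the 0.05 that tests with no difference would give on average. Gm13456 was at 6.47 to 8.25 at 3 mpi and 4.63 to 6.30 at 5 mpi after control extract, and at 5.89 to 7.64 and 6.71 to 10.7 after AD extract (difference of steps -0.77 ± 0.13, limma, adjusted p = 0.0118). The named genes with the next smallest p-values were Vcp-rs (-0.68, adjusted p = 0.0833), Rpl14-ps1 (-0.55, adjusted p = 0.121) and Aldh1a3 (0.74, adjusted p = 0.252). Gm13456 belongs to 11 pseudogenes and related sequences listed earlier from these same libraries, so its direction is no independent evidence. All 11 had a negative step after control extract (median -0.19, none called) and a positive one after AD extract (median 0.38, 7 called).

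In the 3-month cohort, the step after control extract passed for 1 of 19976 genes (0.00501%), and for none of the 43. Of the 43 genes 11 had the same direction there. Levels of other tissue moved with this step: at 5 mpi all 18 choroid plexus genes (median -1.82), all 11 ependymal genes (-0.68) and all 20 myelin genes (-0.29) had lower means than at 3 mpi, and 14 of 16 fibroblast genes had higher ones (0.56). Their part in the values of the 43 genes was not tested. Dbp was at 47.4 to 67.3 at 3 mpi and 47.2 to 57.9 at 5 mpi in the 3-month cohort (-0.15, adjusted p = 0.93), Nr1d1 at 60.4 to 85.8 and 75.4 to 88.7 (0.18, adjusted p = 0.74), and Pdia6 at 98.0 to 114 and 91.7 to 108 (-0.05, adjusted p = 0.97). For all 3 the groups overlapped. Levels are not compared across cohorts, since each table was scaled on its own.

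A test of the difference in step between cohorts, on reads of both tables scaled together, passed for 1 of 21297 genes (0.0047%), the secreted Wnt inhibitor Wif1 (-0.87 ± 0.16, limma, adjusted p = 0.0231). At an unadjusted p under 0.05 there were 2014 of the 21297 genes, where tests with no difference would give a share of 0.05 on average. Wif1 was at 0.983 to 1.58 and 0.637 to 1.16 in 12-month mice and at 0.615 to 1.02 and 1.16 to 2.20 in 3-month mice. Nr1d1 (-0.65 ± 0.13) and Zdhhc8 (-0.54 ± 0.11) had an adjusted p of 0.0535 each, and none of the 43 passed. Specc1 (0.32) and Kcnj4 (-0.59), also among the 43, had the same adjusted p. Of the 43, 36 were at an unadjusted p under 0.05 in this test and 16 in that between extracts. Choosing genes by the 12-month control step favors both counts. The count was 0 when 1 of 7 single libraries was left out and 21 without replicate 5 of the 12-month 3 mpi group, so the Wif1 call depends on single libraries (replicate 4 at 3 mpi and replicate 5 at 5 mpi of the 12-month groups, and replicates 1, 4 and 5 at 3 mpi and 4 and 5 at 5 mpi of the 3-month groups).

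**Figure D4:**
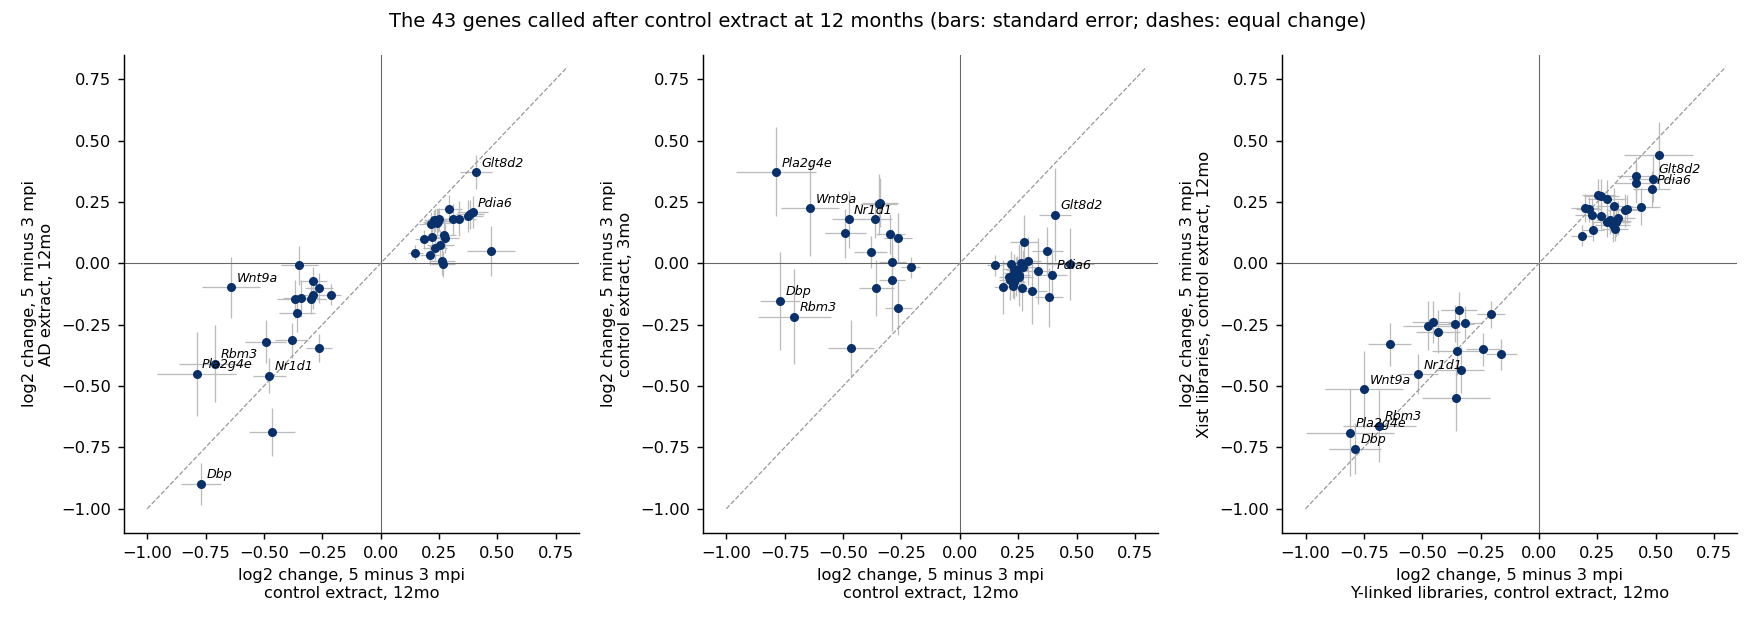
Change from 3 to 5 mpi (log2) of the 43 genes called after control extract at 12 months, with bars of 1 standard error and a dashed line of equal change: against the step after AD extract (left), against the control step of the 3-month cohort (middle), and Xist against Y-linked libraries of the 12-month control groups (right). After AD extract 42 of 43 points have the same sign on both axes, in the 3-month cohort 11, and between Y-linked and Xist libraries 43; the 12-month control libraries behind the x values, and behind both axes on the right, chose the genes.

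The control libraries at 1 mpi are set beside these groups with no test because the 3 and 5 mpi values chose the genes. For 40 of the 43 genes the mean at 1 mpi lay between the means at 3 and 5 mpi, which that choice of genes favors. For 2 it lay beyond that of 5 mpi and for 1 beyond that of 3 mpi. Pdia6 averaged 124 at 1 mpi, 105 at 3 mpi and 138 at 5 mpi, Calr 410, 360 and 441, Dbp 32.5, 45.8 and 26.5, and Nr1d1 55.9, 70.1 and 50.3. Bhlhe41 averaged 43.0, 43.6 and 35.5, and Fgf10 19.5, 18.4 and 24.1, nearer to 3 than to 5 mpi.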

How the data were processed

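Polyadenylated RNA of mouse hippocampus was sequenced, and the authors deposited 1 table per age cohort with a signal per gene and library: reads per 1000000 (RPM), divided by a factor of each library. The submitters' processing notes name STAR, Picard and edgeR with GRCm38, without versions, and how reads of gene copies or of opposite strands were counted is not given in the sources used here. Dividing each deposited value by that of 1 read gave whole reads for 100% of values (within 0.01 reads). Gene symbols and coordinates are from GENCODE vM21 (GRCm38), which matched 96.1% of 55421 genes.

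The main test was limma 3.58.1 (trend) on log2(value + 1), with 1 mean for each of the 6 groups (37 libraries) of the 12-month table. It ran over the 20084 genes kept by filterByExpr of edgeR 4.0.16, with Benjamini-Hochberg adjustment and a threshold of 0.05. A fold change on this scale understates that of low genes. The comparison with the 3-month cohort used recovered reads of all 66 libraries, scaled by TMM. Marker list levels were tested by exact permutation. The labels do not say whether libraries of a group are separate animals, so p-values measure the spread between libraries. Within both control groups every pair of libraries differed by more than sampling noise. Replicate numbers did not pair the groups: deviations of the 6 pairs correlated at -0.191 to 0.001.

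Genes named are the 15 called genes with the largest changes each way (mean log2 of at least 1, no gene models), 3 for each difference test, up to 4 per list with the smallest p-values, and 10 genes fixed by name. The 13 other called genes, list members beyond these and 3 added lists were named after their values were seen. The members and lists were chosen with earlier results of these data known. Alternatives were another scaling, pseudocount, filter, test (edgeR quasi-likelihood, DESeq2 1.42.0), spread, covariate or set of libraries. R was 4.3.3. The limma test was also run on simulated data. These had no built-in differences by sex or neighboring tissue, so they bear on no single call.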

Additional observations from a re-analysis of the deposited data

Results flagged for a closer look

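Steps that differed between groups. The change from 3 to 5 mpi of Gm13456 was lower after control than after AD extract by 0.77 on the log2 scale (-0.77), and that of Wif1 was lower in 12-month than in 3-month mice (-0.87). Between Y-linked and Xist libraries, the step after control extract differed for Eif4a-ps4 (-1.40, limma, adjusted p = 2.91e-04), Gm15920 (-1.33, adjusted p = 7.11e-04) and Rpl12 (-0.91, adjusted p = 0.00238). At 3 mpi Eif4a-ps4 was at 11.1 or more in Y-linked and 4.72 to 4.91 in Xist libraries, and Gm15920 at 4.14 to 5.45 and 1.24 to 1.89. At 5 mpi they were at 7.17 to 10.4 and 1.72 to 3.01 over all 7 libraries. Rpl12 ran the same way, as given above.

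Single libraries that stood apart from their group. Among 67 genes looked at in both control groups, 11 of 134 groups had 1 library apart by Dixon's criterion, where chance gives about 1 in 20. Replicate 6 at 5 mpi accounts for 5 of these, with Sun1 at 72.2, Zdhhc8 at 44.8, Zfp46 at 34.9 and Per1 at 71.4 as the highest and Ccnd1 at 64.2 as the lowest of the 7. In 4 of these genes (Sun1, Zdhhc8, Zfp46 and Ccnd1) it lay nearest to the 3 mpi group. Replicate 2 at 5 mpi was lowest for Mdga1 (60.1) and highest for Cst7 (2.24), and replicate 3 was highest for C3 (16.5). At 3 mpi replicate 4 was lowest for Ints3 (63.7) and Specc1 (106), and replicate 5 was highest for Ttr (5030).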

How the results depend on the processing

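The 43 called genes kept their direction under all settings, and 10 passed in every fit of all planned settings: Dbp, Nr1d1, Zfp46, Pdia6, Calr, Glt8d2, Mdga1, Fgf10, Rexo4 and Tmem50b. The count was 105 with DESeq2, 122 with a choroid plexus covariate, 67 with an Xist covariate and 22 with a thalamus covariate. It was 15 when only the 2 groups compared were fitted, 18 in Y-linked and 6 in Xist libraries fitted alone, and 20 to 68 when 1 library was left out. With the 12-month groups split by sex in 1 fit it was 92 in Y-linked libraries, 6 in Xist libraries and 136 for the mean of both (these settings by sex were chosen after seeing the data). The edgeR quasi-likelihood test called 51. For control minus AD extract the count was 4 without a filter, 2 with edgeR, 8 with DESeq2, 0 with only the groups compared and 1 to 2 leaving out 1 library. For the 12-month minus 3-month step it was 5 with relative log expression scaling, 3 with upper-quartile scaling, 0 without a filter, 12 with a stricter filter, 6 with edgeR, 26 with DESeq2, 25 with only the groups compared, 3 with a choroid plexus and 11 with an Xist covariate, and 0 to 21 leaving out 1 library. With the replicate number as a block, 23 genes passed (14 higher and 9 lower, all among the 43), and 1 in each difference test; the samples share only a number. The cause of these shifts was not tested. Between 3 and 5 mpi 1968 of 20084 genes were at an unadjusted p under 0.05, where tests with no difference would give a share of 0.05 on average. Only the 43 passed after adjustment.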
